A study of Mus musculus with 18 samples.

Results

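Anti-CD40 Ab given alone was compared with control treatment in MC38 tumors, using 9 of the 18 arrays of the series. The members are the 4 arrays whose titles name the antibody without a MEK inhibitor and the 5 arrays titled as controls. MC38 is a colon carcinoma line derived from C57BL/6 mice, here 1 cell line injected in Matrigel under the skin of C57BL/6-Ly5.1 animals aged 6 to 12 weeks. Control mice received the oral vehicle MCT (methylcellulose tween) and a control IgG. Anti-CD40 mice received the same vehicle and an agonist anti-CD40 antibody in mouse IgG1 form (CD40 mIgG1). The remaining 9 arrays come from mice that received the MEK inhibitor GDC-0623 (30 mg/kg daily), 5 of them with control IgG (MEKi) and 4 with CD40 mIgG1 (MEKi/CD40). Antibodies were given on treatment days 3, 5 and 7 and again 1 day before the tumors were taken, which was day 22 after inoculation. Each array holds RNA of a whole snap-frozen tumor piece from a different animal, so the spread within a group is the spread between animals.

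CD40 is a receptor of the tumor necrosis factor receptor family on dendritic cells, B cells and macrophages, and its natural ligand sits on activated helper T cells. An agonist antibody can take the place of that ligand. Dendritic cells triggered in this way mature, secrete interleukin-12 and prime CD8+ T cells, which in turn release interferon-gamma (IFNγ), a cytokine that raises chemokine, GTPase and antigen-presentation genes in the cells around them.

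Values are the deposited log2 intensities of probe sets, and all differences are anti-CD40 minus control on this log2 scale. A value near the lowest deposited value of 2.16 carries no signal above background, and 34.6% of the values on these 9 arrays were equal to it. The arrays were alike in distribution, with medians of 2.73 to 2.76 and upper quartiles of 8.17 to 8.25. Adgre1, a surface antigen of mouse macrophages, read 10.49 to 11.37, and the epithelial genes Epcam and Cdh1 read 5.19 to 5.65 and 6.08 to 6.89. The simple-epithelium keratin gene Krt8 read 2.44 in 8 of 9 tumors and 3.33 in control 1. The probe set used for this keratin therefore did not mark the tumor cells. The animal numbers in the titles of the anti-CD40 tumors were all lower than those of the controls, and among the controls only tumors 1 and 2 had numbers under 7800.

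No probe set passed the test between the groups. In limma, 0 of 45037 probe sets (0.0%) had an adjusted p under 0.05, the smallest adjusted p was 0.165, and 2423 probe sets had an unadjusted p under 0.05, of which 992 were higher and 1431 lower with anti-CD40 Ab. Leaving out probe sets with a mean below 5 gave 2 calls, both higher (0.0108% of 18444), namely a second probe set of Slamf6 and a probe set with no single gene symbol. Among 18193 named genes, 498 (2.74%) were higher and 589 (3.24%) lower at an unadjusted p under 0.05. In 147 genes (0.808%) every anti-CD40 tumor lay above every control, and in 178 genes (0.978%) below. Among the 9457 genes with a mean of at least 5 these shares were 4.34% higher and 5.82% lower at the unadjusted threshold, and 1.23% higher and 1.73% lower without overlap. The median difference over all named genes was 0.0. Counts within gene lists below are read against these shares, and no list member had an adjusted p under 0.05. By a rule on size, brightness and absence of overlap, 12 genes were named on the higher side (Gzmk, Ly6i, Gimap7, Chil3, Cd247, Plac8, Spn, Cxcl13, Serping1, Cd2, Il18bp and Lat) and 6, all that met it, on the lower side (Stab1, Fcrls, Pf4, Ccl9, Mrc1 and Abca9).

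**Figure D1:**
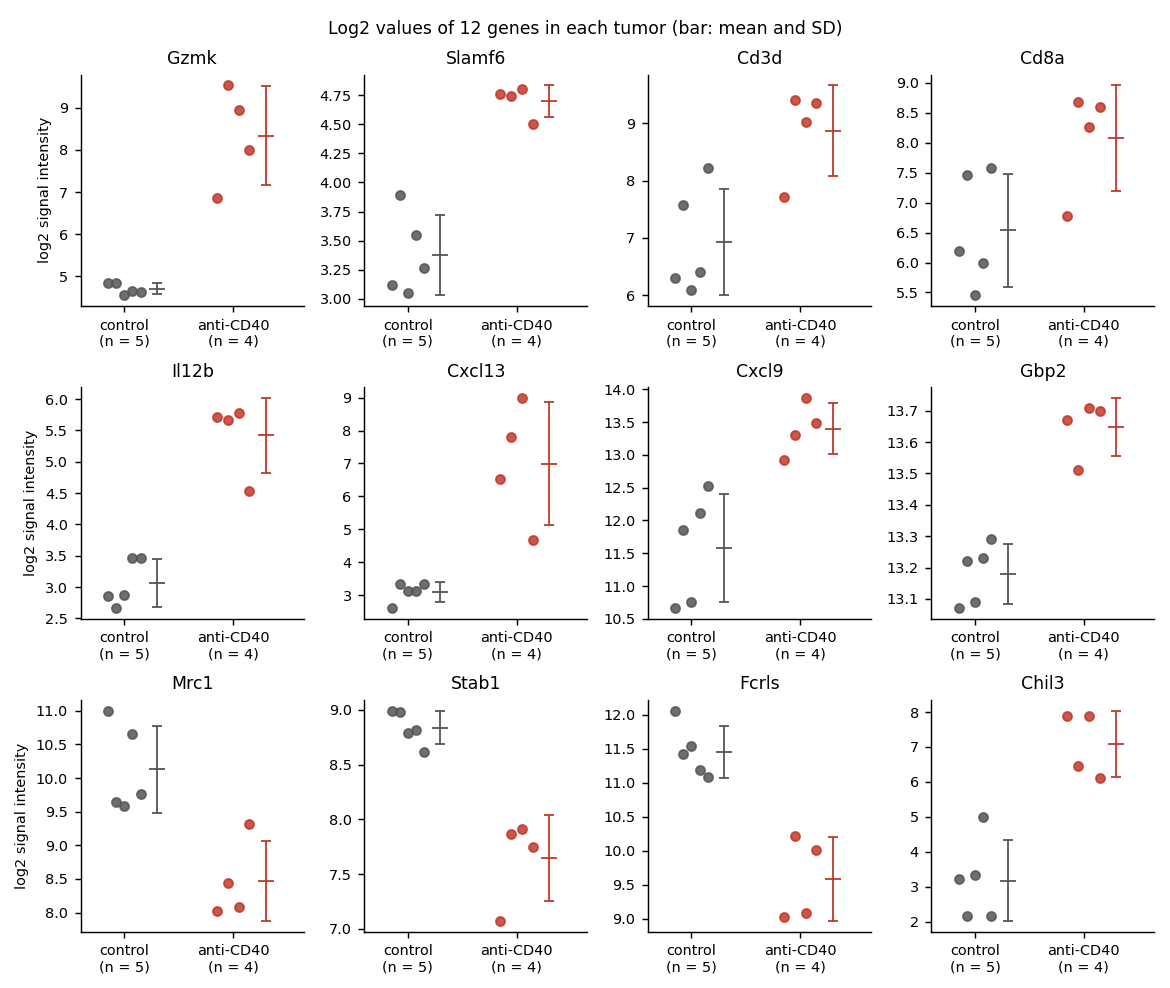
Log2 signal intensity (vertical axis, one scale per gene) of 12 genes in each control tumor (n = 5, grey) and anti-CD40 tumor (n = 4, red), with bars for mean and SD. Gzmk, Slamf6, Il12b, Cxcl13, Cxcl9, Gbp2 and Chil3 lay higher in all 4 anti-CD40 tumors than in any control, Mrc1, Stab1 and Fcrls lay lower, and Cd3d and Cd8a overlapped because anti-CD40 tumor 1 fell among the controls.

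The question addressed first was whether the CD40 pathway and the dendritic cell program downstream of it differed between treated and control tumors. Cd40 itself, the antibody's target, read 7.23, 7.20, 6.88, 7.18 and 6.65 in controls 1 to 5 and 7.70, 7.65, 7.85 and 7.57 in anti-CD40 tumors 1 to 4. All 4 treated tumors lay above all controls, by 0.66 ± 0.14 (SE) in the mean (1.59-fold, adjusted p = 0.480). In a whole tumor piece, a different number of cells of a type and a different amount of RNA per cell cannot be told apart, here and in all comparisons that follow. Il12b, which encodes the p40 subunit shared by interleukin-12 and interleukin-23, read 2.85, 2.66, 2.88, 3.47 and 3.47 in the controls and 5.71, 5.67, 5.78 and 4.53 with anti-CD40 Ab. The groups did not overlap, 3 of 5 controls were below 3, and the difference of 2.36 ± 0.32 (adjusted p = 0.234) became 2.23 after values below 3 were raised to 3. Fitted together with the other groups, so that all 18 arrays shared 1 estimate of the spread, Il12b passed the threshold (adjusted p = 0.0123). Il12a, which encodes the other interleukin-12 subunit, stayed between 2.16 and 2.17 in all 9 tumors.

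The wider CD40 lists had small median differences. Of 22 measured genes of CD40 receptor and TRAF/NF-kB signaling, 2 were higher and 3 lower at an unadjusted p under 0.05, with a median difference of 0.04. At that threshold 2.74% of all genes were higher and 3.24% lower. Tnfaip3, which encodes the feedback inhibitor A20, stood higher by 0.27 ± 0.09 without overlap. Rela, the p65 subunit of NF-kB, lay between 10.77 and 10.94 in the controls and between 10.59 and 10.71 in the treated tumors, a difference of -0.22 ± 0.04 (adjusted p = 0.419). Nfkb2, the non-canonical subunit, gave -0.26. Among 24 measured genes of dendritic cell maturation, 4 were higher (Il12b, Cd40, Ccl5 and Cd274) and 1 lower at the unadjusted threshold, with a median difference of 0.001. The count of 4 became 2 without any 1 of controls 3 and 4 and anti-CD40 tumors 3 and 4, and with controls 1 and 2 alone. The lower gene was Cd83, a maturation antigen of dendritic cells, with 9.07 to 10.42 in the controls and 8.39 to 9.27 in the treated tumors (-0.91 ± 0.31). Cd86, a costimulatory ligand, differed by 0.29 and overlapped, and Cd80 and Cd70 were at background. Ccr7, the homing receptor of migrating dendritic cells, read 2.30 to 3.44 in the controls and 2.59 to 4.58 in the treated tumors. Of 19 dendritic cell identity genes, 0 had an unadjusted p under 0.05. None of the 18 measured B cell markers and 13 plasma cell genes did either, and the B cell genes Cd79a and Ms4a1 (CD20) stayed at 2.16 to 2.17 in all 9 tumors, so B cells were not detectable through these genes.

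T cell genes formed the list with the largest median difference of the cell type lists described here. Of 20 measured genes of the T cell receptor complex and T cell markers, 19 were positive and Cd4 was at background in every tumor, with a median difference of 1.19, and 12 of 20 had an unadjusted p under 0.05 where 2.74% of all genes did. Cd3d, a chain of the CD3 complex, read 6.31, 7.58, 6.10, 6.41 and 8.22 in the controls and 7.71, 9.40, 9.02 and 9.36 with anti-CD40 Ab. Anti-CD40 tumor 1 fell within the control range, and the other treated tumors lay above it, a difference of 1.95 ± 0.57 (3.86-fold, adjusted p = 0.718). Cd8a, which marks cytotoxic T cells, followed the same order, with 6.20, 7.47, 5.45, 6.00 and 7.58 against 6.78, 8.68, 8.26 and 8.60, a difference of 1.54 ± 0.60. Cd8b1, the partner chain of Cd8a, gave 2.49 ± 0.90. Cd4, the helper T cell co-receptor, was at 2.16 in all 9 tumors on the probe set used here, so that probe set says nothing about helper T cells.

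In 5 of the 20 T cell genes the groups did not overlap, against 0.808% of all genes. Cd247, the CD3 zeta chain, read 4.41, 4.38, 3.91, 4.41 and 4.85 in the controls and 5.22, 6.05, 6.17 and 6.60 in the treated tumors (1.62 ± 0.30, adjusted p = 0.420). Cd2, an adhesion receptor of T and NK cells, lay between 4.54 and 5.65 in the controls and between 5.71 and 7.04 in the treated tumors (1.66 ± 0.36). The adaptor genes Lat and Sh2d1a gave 1.67 ± 0.40 and 1.52 ± 0.41, and the kinase gene Zap70 gave 0.71. With values below 3 raised to 3, Sh2d1a gave 1.175 and Zap70 0.41. Bcl11b, a transcription factor of T cell identity, stood higher by 2.33 ± 0.59 with overlap. Outside that list, Gimap7, a GTPase gene of lymphocytes, read 3.91, 4.40, 3.81, 3.81 and 4.52 against 5.26, 7.44, 6.77 and 7.08, a difference of 2.55 ± 0.44 (5.85-fold, adjusted p = 0.382). Spn, which encodes the leukocyte sialoglycoprotein CD43, read 6.36 to 7.86 against 8.17 to 8.73 (1.61 ± 0.32). Without anti-CD40 tumor 3 or without control 4, the number of T cell genes at the unadjusted threshold was 7 of 20, with controls 1 and 2 alone as the comparison it was 5, and over all alternatives it ran from 5 to 17.

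Gzmk and Slamf6, genes associated with memory-like CD8+ T cells, had the smallest p-values of the T cell genes named here. Gzmk, which encodes granzyme K, read 4.85, 4.85, 4.55, 4.65 and 4.64 in the controls and 6.86, 9.54, 8.96 and 7.99 with anti-CD40 Ab. The controls lay within 0.3 of each other, whereas the treated tumors spread over a much wider range above them. The difference was 3.63 ± 0.51 (12.4-fold, adjusted p = 0.247, and 0.0151 in the fit of all 18 arrays). The latter fit used 1 estimate of the spread for groups that differed in it. Slamf6, a receptor of the SLAM family, read 3.12, 3.89, 3.05, 3.55 and 3.27 against 4.76, 4.74, 4.80 and 4.50, a difference of 1.32 ± 0.18 (adjusted p = 0.234, and 0.0242 in the fit of all 18 arrays). Its second probe set gave 1.07 ± 0.10 with an adjusted p of 0.165, and 0.0250 once dim probe sets were left out.

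Cytotoxic effector genes lay on both sides. Of 20 measured genes, 11 were positive, 5 were higher and 2 lower at the unadjusted threshold, and the median difference was 0.37. The count of 5 was 3 without any 1 of controls 1, 3 and 4 or anti-CD40 tumors 2 and 3 and with controls 1 and 2 alone, and 8 without control 5. Beside Gzmk, the higher genes were Nkg7, a granule protein of cytotoxic lymphocytes (2.05 ± 0.65), Fasl, the death receptor ligand (1.90), Ifng, which encodes IFNγ (1.45 ± 0.60), and Serpinb9, a granzyme B inhibitor. With values below 3 raised to 3, Fasl gave 1.57. Ifng read 3.31, 5.49, 4.18, 4.23 and 5.39 in the controls and 4.86, 5.55, 6.75 and 6.71 in the treated tumors, with overlap. Gzmb, granzyme B, differed by 0.56 ± 0.54 and Gzma by 0.57, neither at the unadjusted threshold. Gzmc, granzyme C, lay on the other side with 7.29, 7.55, 9.48, 8.17 and 8.92 against 6.16, 6.94, 4.00 and 7.75 (-2.07 ± 0.83), and gave -1.33 without anti-CD40 tumor 3 and -1.21 with controls 1 and 2 alone. Xcl1, a chemokine that attracts cross-presenting dendritic cells, also lay lower (-1.05 ± 0.39).

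Among 14 checkpoint receptors and ligands, 11 were positive, 6 were higher and 0 lower at the unadjusted threshold, with a median difference of 0.31. Pdcd1, which encodes PD-1, read 4.37, 6.11, 5.09, 5.10 and 7.03 against 6.28, 7.43, 7.08 and 7.77, a difference of 1.60 ± 0.58 with overlap. Tox, a transcription factor of chronically stimulated T cells, gave 1.32 ± 0.36, or 0.90 with values below 3 raised to 3. Ctla4 read 3.86 to 4.00 in the controls and 4.05 to 4.59 in the treated tumors, without overlap (0.44 ± 0.10, adjusted p = 0.574). Cd274, which encodes PD-L1, lay between 8.04 and 9.01 in the controls and between 8.83 and 9.36 in the treated tumors (0.62 ± 0.24). Foxp3, the regulatory T cell factor, stayed at 2.45 to 2.47. The number of higher genes in this list was 3 without anti-CD40 tumor 3 or control 3, and 2 without anti-CD40 tumor 4 or with controls 1 and 2 alone.

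The balance of Cd8a over Foxp3 was compared as the difference of both log2 values in each tumor. It was 4.09 ± 0.94 (SD, n = 5) in the controls and 5.63 ± 0.88 (SD, n = 4) with anti-CD40 Ab, a difference of 1.54 (exact two-sided permutation test, p = 0.0635, adjusted p = 0.0635 over 2 indices). Because Foxp3 was at background, this index carried the Cd8a values alone.

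**Figure D2:**
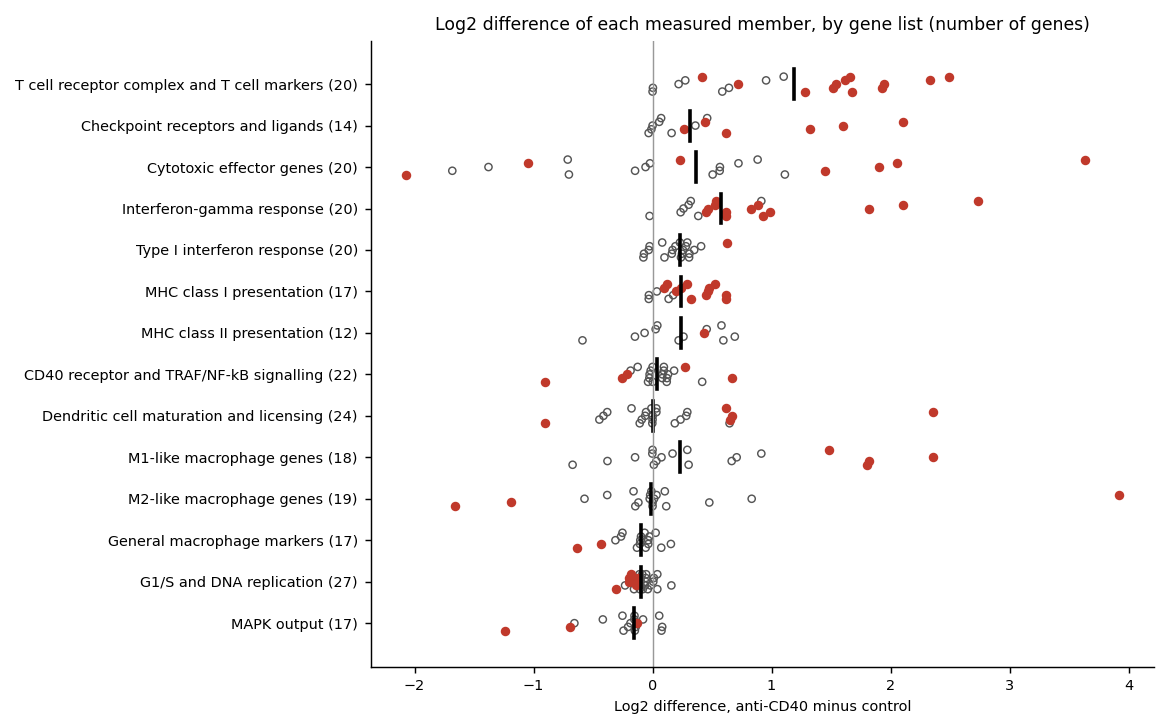
Log2 difference between anti-CD40 and control tumors (horizontal axis) for every measured member of 14 gene lists (vertical axis, number of genes in brackets), with filled red points for an unadjusted p under 0.05, open points for the others and a black bar at the list median. T cell and IFNγ-response genes spread to the right of 0, whereas CD40 signaling and dendritic cell maturation genes centered on it.

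IFNγ-response genes had the largest share of genes without overlap among the lists described here. Of 20 measured genes, 19 were positive, 13 were higher and 0 lower at the unadjusted threshold, and in 11 the groups did not overlap. Of all genes 0.808% lay higher without overlap, and of those with a mean of at least 5, as 19 of the list had, 1.23%. The median difference of the list was 0.57. The mean of the list lay between 9.59 and 10.38 in the controls and between 10.59 and 11.09 in the treated tumors. Of 20 type I interferon response genes, 16 were positive and 1 had an unadjusted p under 0.05 (Zbp1, a nucleic acid sensor), with a median difference of 0.24. That count was 8 without control 2 and 0 to 2 under the other alternatives, and the median ran from 0.09 to 0.39.

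The promoters of 3 IFNγ-response genes whose groups did not overlap are shown to place these values beside a sequence element through which interferons act. All 3 held a match to this element, whereas Cxcl9, Psmb9 and Tap1, also genes of the list without overlap, held none. Each line gives the 250 bases before the transcription start from RefSeq (GRCm38.p6), read on the strand of the gene, and capitals mark matches to GAAANNGAAA or its reverse complement TTTCNNTTTC, the interferon-stimulated response pattern. They are Igtp at chr11:58199306-58199555 (plus strand, 1 match of GAAANNGAAA), Irgm1 at chr11:48871421-48871670 (minus strand, 2 overlapping matches of GAAANNGAAA) and Gbp2 at chr3:142620413-142620662 (plus strand, 1 match of TTTCNNTTTC).
Igtp: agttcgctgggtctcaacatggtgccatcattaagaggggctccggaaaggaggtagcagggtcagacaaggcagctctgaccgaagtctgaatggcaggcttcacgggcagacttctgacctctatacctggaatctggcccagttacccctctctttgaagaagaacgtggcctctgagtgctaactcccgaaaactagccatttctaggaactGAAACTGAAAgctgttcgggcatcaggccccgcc
Irgm1: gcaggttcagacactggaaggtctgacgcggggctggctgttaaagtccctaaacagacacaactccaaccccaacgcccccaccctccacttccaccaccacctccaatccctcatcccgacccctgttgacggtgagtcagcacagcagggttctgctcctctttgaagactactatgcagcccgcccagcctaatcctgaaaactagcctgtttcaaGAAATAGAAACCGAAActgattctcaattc
Gbp2: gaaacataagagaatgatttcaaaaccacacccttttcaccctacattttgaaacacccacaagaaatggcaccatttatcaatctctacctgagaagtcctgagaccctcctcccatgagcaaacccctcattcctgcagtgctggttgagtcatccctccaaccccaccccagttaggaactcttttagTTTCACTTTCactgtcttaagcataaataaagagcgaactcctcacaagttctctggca
Of the 20 IFNγ-response genes, 13 had such a window, and 8 of these (61.5%) held GAAANNGAAA on either strand. Over all 27025 genes with a window the share was 3.46%. Among 13 type I interferon response genes the share was 38.5%, among 14 MHC class I presentation genes 7.14% (1 gene), and among 12 T cell genes 0.0%. A match describes these letters and not a bound site.

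Of the genes with these promoters, Igtp, an immunity-related GTPase that acts against intracellular pathogens, read 11.73, 12.56, 12.14, 12.18 and 12.51 in the controls and 12.97, 12.91, 13.11 and 13.20 with anti-CD40 Ab (0.82 ± 0.18, adjusted p = 0.521). Irgm1, a regulator of the same family, read 11.60, 12.06, 11.68, 11.62 and 11.61 against 12.25, 12.14, 12.39 and 12.20 (0.53 ± 0.11, adjusted p = 0.465). Gbp2, a guanylate-binding protein, read 13.07, 13.22, 13.09, 13.23 and 13.29 against 13.67, 13.51, 13.71 and 13.70. The Gbp2 difference was small in size, 0.47 ± 0.06 (1.38-fold), but wide against the spread of either group (SD 0.10 and 0.09, adjusted p = 0.228). The related GTPase genes Irgm2, Iigp1 and Gbp6 gave 0.88, 0.99 and 0.93, each without overlap.

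Cxcl9, the IFNγ-induced chemokine that attracts CXCR3+ T cells, stood higher in every treated tumor. It read 10.66, 11.85, 10.76, 12.11 and 12.52 in the controls and 12.93, 13.31, 13.87 and 13.48 in the treated tumors (1.82 ± 0.44, 3.52-fold, adjusted p = 0.628). Cxcl10, which binds the same receptor, differed by 0.30 and overlapped. Ido1, a tryptophan-degrading enzyme, gave 2.11 ± 0.72 with overlap. Il18bp, the secreted inhibitor of interleukin-18, read 7.75, 8.73, 7.96, 8.46 and 9.19 against 10.02, 9.33, 9.80 and 9.83 (1.33 ± 0.31). Ly6i, a member of the Ly6 surface protein family, read 4.01, 4.42, 4.29, 5.19 and 6.03 against 7.24, 8.88, 8.49 and 7.93, a difference of 3.35 ± 0.51 (10.2-fold, adjusted p = 0.286). Serping1, the C1 inhibitor of complement, gave 2.73 ± 0.58, and 2.11 without anti-CD40 tumor 3, which read highest at 10.04.

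MHC class I presentation genes stood higher by smaller amounts. Of 17 measured genes, 15 were positive, 12 were higher and 0 lower at the unadjusted threshold, in 8 the groups did not overlap, and the median difference was 0.24. Psmb9, a subunit of the immunoproteasome, read 11.60, 11.76, 11.49, 11.76 and 11.94 in the controls and 12.36, 12.14, 12.23 and 12.22 with anti-CD40 Ab (0.53 ± 0.09, adjusted p = 0.397). Tap1, which carries peptides into the endoplasmic reticulum, read 10.58, 11.05, 10.60, 10.90 and 11.15 against 11.49, 11.37, 11.49 and 11.54 (0.62 ± 0.13, adjusted p = 0.522). Both genes also belong to the IFNγ-response list. The remaining peptide-loading genes gave 0.32 (Tap2), 0.47 (Tapbpl), 0.24 (Psmb8) and 0.19 (Psme1). The heavy chain gene H2-M3, a non-classical class I gene, gave 0.45, and Nlrc5, the transactivator of class I genes, 0.62. The classical heavy chain genes H2-K1 and H2-D1 gave 0.14 and 0.47, and B2m, the light chain, 0.10 at a mean near 15, and H2 probe sets may share signal among near-identical copies. In MHC class II presentation, 9 of 12 genes were positive and 1 (Ifi30, a lysosomal thiol reductase) had an unadjusted p under 0.05. H2-Aa, the class II alpha chain, read 11.61 to 14.31 in the controls and 12.88 to 13.98 in the treated tumors.

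**Figure D3:**
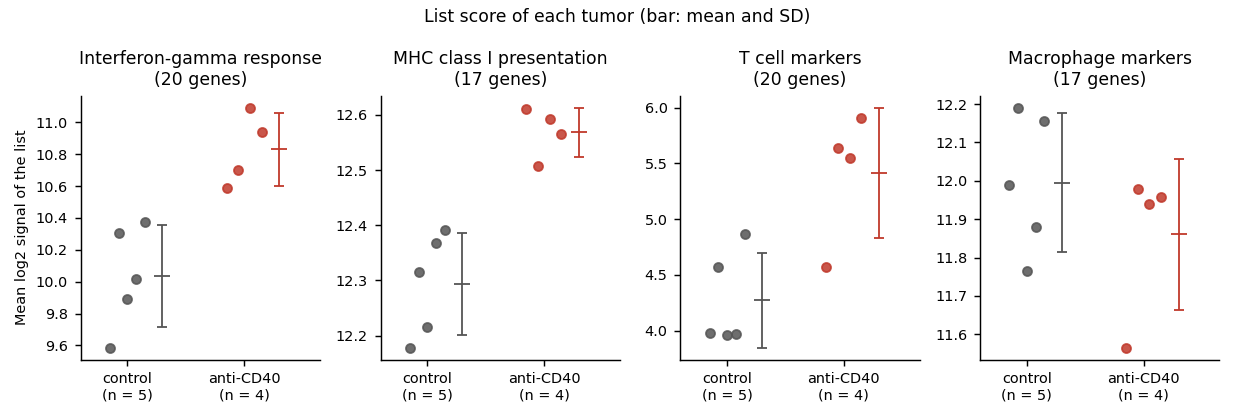
Mean log2 signal over the genes of 4 lists (vertical axis, one scale per list) in each control tumor (n = 5, grey) and anti-CD40 tumor (n = 4, red), with bars for mean and SD. The IFNγ-response and MHC class I means did not overlap between the groups, whereas the T cell and macrophage means did, with anti-CD40 tumor 1 lowest among the treated tumors in both.

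Macrophage genes were next compared, because CD40 is also a receptor of macrophages. The 17 general macrophage markers gave a median difference of -0.10, with 0 higher and 2 lower at the unadjusted threshold. Those 2 were Cd14, the lipopolysaccharide co-receptor (-0.63 ± 0.12), and Cx3cr1, the fractalkine receptor (-0.43 ± 0.14), both without overlap, whereas Adgre1 differed by -0.10 and overlapped. The list mean lay between 11.77 and 12.19 in the controls and between 11.57 and 11.98 in the treated tumors.

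Several of the 6 genes named by rule on the lower side are known from resident-type or scavenging macrophages. They were picked for their values in these data, so they do not describe macrophage genes as a set. Mrc1, the mannose receptor CD206, read 11.00, 9.65, 9.58, 10.65 and 9.76 in the controls and 8.02, 8.44, 8.09 and 9.31 with anti-CD40 Ab (-1.66 ± 0.41, 3.17-fold lower, adjusted p = 0.637). Stab1, the scavenger receptor stabilin-1, read 8.99, 8.98, 8.79, 8.82 and 8.62 against 7.07, 7.87, 7.91 and 7.75 (-1.19 ± 0.18, adjusted p = 0.290). Fcrls, an Fc receptor-like gene of macrophages and microglia, read 12.06, 11.42, 11.54, 11.19 and 11.08 against 9.03, 10.22, 9.08 and 10.02 (-1.87 ± 0.33, adjusted p = 0.382). In all 3 genes every treated tumor lay below every control. Pf4 and Ccl9, chemokines expressed by macrophages, also lay lower without overlap. Pf4 gave -1.06 ± 0.22, and Ccl9 read 9.32 to 10.49 in the controls and 8.54 to 8.96 in the treated tumors. Abca9, a lipid transporter gene, gave -1.59 ± 0.57, and -0.98 without anti-CD40 tumor 1, which read lowest at 4.71.

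Not every gene of the M2-like list lay lower. Of its 19 measured genes, 7 were positive, 1 was higher and 2 were lower at the unadjusted threshold, and the median difference was -0.01. Arg1, arginase 1, read 10.13 to 11.93 in the controls and 10.10 to 11.62 in the treated tumors. Chil3, which encodes the chitinase-like protein Ym1 and is also expressed by monocytes and neutrophils, lay on the other side, with 3.21, 2.16, 3.33, 4.99 and 2.17 in the controls and 7.90, 6.45, 7.90 and 6.11 with anti-CD40 Ab. Its difference was 3.92 ± 0.70 (adjusted p = 0.413), and 3.58 with values below 3 raised to 3. Plac8, a gene of inflammatory monocytes, read 8.57, 9.33, 9.29, 9.06 and 9.68 against 10.23, 10.18, 10.39 and 10.51 (1.14 ± 0.21, adjusted p = 0.431). The M1-like list had 13 of 18 genes on the positive side and 4 higher at the unadjusted threshold, namely Fpr2, a formyl peptide receptor (1.48 ± 0.43), Gpr18, a G protein-coupled receptor (1.80 ± 0.47), and Cxcl9 and Il12b, given above.

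Nos2, the inducible nitric oxide synthase that defines M1-like macrophages, was at 2.16 in all 9 tumors. The difference of Nos2 and Mrc1 was -7.97 ± 0.65 (SD, n = 5) in the controls and -6.30 ± 0.59 (SD, n = 4) with anti-CD40 Ab (exact two-sided permutation test, p = 0.0159, the smallest this design allows, adjusted p = 0.0317 over 2 indices). With 1 tumor left out the adjusted p was 0.0357 without anti-CD40 tumor 1 and 0.0571 or 0.0714 in the other 8 cases, where the exact test could not give a p under 0.0286. This index therefore carried the Mrc1 values alone, which had an adjusted p of 0.637 in limma over all probe sets.

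Cxcl13, the B cell-attracting chemokine of lymphoid follicles, had the largest difference among the chemokine genes. It read 2.60, 3.34, 3.12, 3.12 and 3.33 in the controls and 6.53, 7.81, 8.99 and 4.66 in the treated tumors (3.90 ± 0.81, adjusted p = 0.497), and 3.82 with values below 3 raised to 3. No overlap was seen, although anti-CD40 tumor 4 stood much closer to the controls. Ccl8, a monocyte-attracting chemokine, gave 1.51 ± 0.50, Ccl5, which attracts T cells and monocytes, 0.65 ± 0.25, and Ltb, the lymphotoxin beta chain, 1.17 ± 0.36. Of 34 chemokine genes, 4 were higher and 3 lower at the unadjusted threshold, with a median difference of 0.03.

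Of 16 neutrophil genes, 3 were higher at the unadjusted threshold (1 without anti-CD40 tumor 4 and 1 without dim probe sets), and of 15 acute-phase genes 1 was higher, Saa3. S100a8, a calcium-binding alarmin of neutrophils and monocytes, read 3.35, 3.70, 2.95, 3.72 and 3.91 in the controls and 7.33, 5.31, 4.76 and 6.45 with anti-CD40 Ab (2.44 ± 0.53, adjusted p = 0.539). Its partner S100a9 gave 2.02 ± 0.69 and the lectin gene Clec4d 1.00, and 7 neutrophil genes were positive with a median difference of 0.0. Saa3, a serum amyloid gene, read 7.28, 5.30, 5.74, 5.74 and 5.30 against 8.68, 8.25, 11.06 and 7.54 (3.01 ± 0.77, adjusted p = 0.649). Without anti-CD40 tumor 3, the Saa3 difference was 2.29, and that of the complement gene C2 was 0.68 in place of 1.19. Anti-CD40 tumor 3 also read 8.39 for the adipocyte gene Adipoq, against 2.25 to 3.91 in the other 8 tumors, and had a mean of 4.65 over 12 adipocyte genes against 2.66 to 3.33. The part of adipose tissue in the Saa3, C2 and Serping1 values was not tested.

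Of 29 genes of mitosis, 0 had an unadjusted p under 0.05 in limma, the median difference was -0.04, and the proliferation gene Mki67 gave -0.19 ± 0.14. Among 27 genes of G1/S and DNA replication, 5 were positive and 6 were lower at the unadjusted threshold, the largest by size being Pold1, a DNA polymerase subunit, at -0.31. In 17 genes of MAPK output, 3 were positive, 3 were lower at that threshold and the median difference was -0.15. The share of lower genes was 3.24% over all genes and 5.82% among those with a mean of at least 5, which most genes of both lists had. Among 17 cholesterol biosynthesis genes 1 was positive and 0 had an unadjusted p under 0.05 in limma, with a median difference of -0.26 that ran from -0.37 to -0.07 over the alternatives. Spry1, a feedback inhibitor of receptor tyrosine kinase signaling, gave -1.24 ± 0.45, and Epha2, an ephrin receptor, read 7.17 to 7.88 in the controls and 6.70 to 7.29 in the treated tumors (-0.70 ± 0.18). Tgfb1, the immunosuppressive cytokine, lay lower without overlap (-0.38 ± 0.09). Tgfbi, a matrix protein gene named for its induction by that cytokine, lay higher without overlap and had the smallest adjusted p of the genes named here together with the second Slamf6 probe set. It read 12.78, 12.88, 12.72, 12.78 and 12.86 against 13.25, 13.34, 13.43 and 13.22 (0.51 ± 0.05, 1.42-fold, adjusted p = 0.165). The stromal lists each had 1 gene higher at the unadjusted threshold, namely Pdgfra among 22 fibroblast and matrix genes and Cldn5 among 18 endothelial genes.

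Finally, the antibody's difference was set beside the same difference under the MEK inhibitor, MEKi/CD40 minus MEKi, which shares no array with it. In limma, 1127 of 45037 probe sets (2.5%) were called in that pair at an adjusted p under 0.05. That count depended on single tumors, and was 29 without MEKi tumor 5, 36 without MEKi tumor 4 and 38 without MEKi tumor 2. The difference between both antibody differences was tested as an interaction over all 18 arrays, and 1191 probe sets (2.64%) were called, or 618 to 1431 with 1 tumor left out. Among IFNγ-response genes, the antibody gave median differences of 0.57 without and 0.73 with the inhibitor, and 19 and 20 of 20 genes were positive. Serping1, Gbp6 and Irgm2 rose with the antibody under the inhibitor, by 3.39 ± 0.57 (adjusted p = 0.0361), 1.23 ± 0.21 (adjusted p = 0.0368) and 1.02 ± 0.18 (adjusted p = 0.0407). Each of these calls was kept in 1 of 9 fits that left out a tumor, with adjusted p up to 0.101, while the differences stayed at or above 3.03, 1.01 and 0.87. Cxcl9 gave 1.82 without and 2.03 with the inhibitor, with no called interaction (0.21 ± 0.66, adjusted p = 1).

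Of the 20 T cell list genes, 0 had a called interaction, where 440 of 18193 named genes did. At that share a count of 0 is no result about the list. Called interactions below 0, where the antibody difference was smaller under the inhibitor, were found for Gzmk, Il12b, Slamf6 and Spn. Their differences without the inhibitor, which are part of the interaction, were known when they were named. Gzmk read 4.64 to 4.85 in the 5 MEKi tumors and 5.30, 4.85, 6.59 and 6.01 in the 4 MEKi/CD40 tumors, a difference of 0.93 ± 0.33, and the interaction was -2.70 ± 0.61 (adjusted p = 0.0337). Il12b read 2.85 to 3.03 in the MEKi tumors and 2.79, 3.79, 3.42 and 3.48 in the MEKi/CD40 tumors, with an interaction of -1.89 ± 0.37 (adjusted p = 0.0173). Slamf6 gave an interaction of -1.29 ± 0.24 (adjusted p = 0.0146) and Spn one of -1.63 ± 0.40 (adjusted p = 0.0468). In both genes the antibody difference under the inhibitor was near 0, at 0.04 and -0.02. The T cell list as a whole had medians of 1.19 without and 0.47 with the inhibitor, and 19 and 17 of 20 genes were positive. Cd3d (interaction adjusted p = 0.632) and Cd8a (0.539) were not called, so a difference between the settings was not shown for them. The interactions of Il12b and Slamf6 were called in all 18 fits that left out a tumor, whereas those of Gzmk and Spn were called in 7 and 3 of them, with the largest adjusted p at 0.0680 and 0.0919, both without anti-CD40 tumor 3. Among tumors with animal numbers under 7800, none of these 4 interactions was called in limma (adjusted p = 0.313 to 0.601). Their values there were -2.65 for Gzmk, -2.19 for Il12b, -1.02 for Slamf6 and -1.49 for Spn. Beside the antibody groups, that subset kept only controls 1 and 2 and MEKi tumors 1 and 2. With so few tumors, a lost call does not show that an interaction is absent.

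Mrc1, Stab1, Ccl9 and Abca9, 4 of the 6 genes named by rule on the lower side, had called interactions and antibody differences of opposite sign in the 2 settings. Over all named genes, 440 of 18193 had a called interaction. The 6 genes were named for their difference without the inhibitor, which is part of the interaction, so their count is no result about them. Mrc1 read 7.37, 7.76, 7.40, 6.92 and 7.20 in the MEKi tumors and 8.43, 8.36, 11.15 and 9.39 in the MEKi/CD40 tumors, 2.00 ± 0.58 higher with the antibody where it was 1.66 lower without the inhibitor. The interaction was 3.67 ± 0.72 (adjusted p = 0.0170). Ccl9 and Stab1 gave interactions of 3.03 ± 0.61 (adjusted p = 0.0191) and 2.14 ± 0.47 (adjusted p = 0.0281), and Abca9 one of 2.50 ± 0.60 (adjusted p = 0.0418). Of these 4 genes, the antibody difference under the inhibitor itself was called for Abca9 alone (0.91 ± 0.17, adjusted p = 0.0459). That Abca9 call was kept in 1 of 9 limma fits that left out a tumor, with adjusted p up to 0.123. The interactions of Mrc1 and Ccl9 were called in all 18 fits that left out a tumor, those of Stab1 and Abca9 in 13 and 4. Among the few tumors with animal numbers under 7800, the interactions of these 4 genes were 2.31 to 3.63 and none was called in limma (adjusted p = 0.413 to 0.568). Fcrls kept its direction, with -1.87 without and -1.89 with the inhibitor. Rela, with a difference of -0.22 alone, had an interaction of 0.29 (adjusted p = 0.0353).

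**Figure D4:**
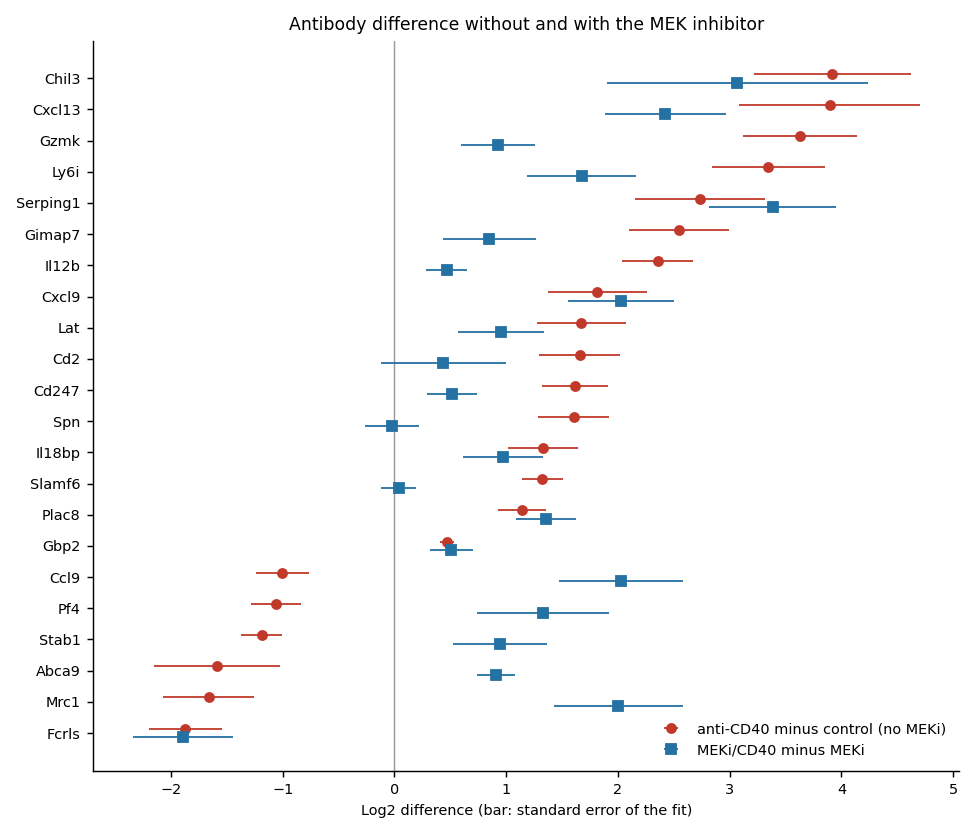
Log2 difference made by anti-CD40 Ab (horizontal axis, bars are standard errors of the limma fit) for 22 genes (vertical axis) without the MEK inhibitor (red circles, 4 against 5 tumors) and with it (blue squares, 4 against 5 tumors). Cxcl9, Gbp2, Plac8 and Fcrls were close in both settings, Gzmk, Il12b, Spn and Slamf6 lay near 0 or well below their first value under the inhibitor, and Mrc1, Stab1, Ccl9, Pf4 and Abca9 lay on opposite sides of 0.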

How the data were processed

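RNA from whole MC38 tumors was hybridized to Affymetrix Mouse430_2 arrays. The deposited values are log2 intensities, 1 per probe set and array, which the authors normalized by RMA in Chipster (version not given in the sources used here). They ran from 2.16 to 16.34 with 34.5% at the lowest value, unlike plain RMA output. The background step is therefore uncertain, and fold changes of dim genes may be understated or overstated. Groups followed the labels.

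Of 45101 probe sets, 64 AFFX control rows were left out. For 34945 probe sets with 1 symbol, 18193 genes were represented by the probe set with the highest mean, passing over sets whose names mark shared transcripts or genes where another existed (34741 matched to RefSeq gene identifiers). Groups were compared with limma 3.58.1 in R 4.3.3 (lmFit and eBayes, no filter), with Benjamini-Hochberg adjustment over 45037 probe sets. SE is that of the fit. The interaction used all 18 arrays. "Without overlap" means that every tumor of a group lay beyond every tumor of the other. Scripts were tested on simulated data. Genes were named by rule, namely up to 12 per direction with a difference of at least 1, a mean of at least 6 in a group and no overlap, in order of p, up to 4 members per list and fixed genes. Tgfbi and further list members were named after their values were seen. Spn, Gpr18 and Cfb met the rule, which itself ranks genes by these values. Members and the 38 gene lists were chosen with earlier results of these data known. Alternatives were a filter on dim probe sets, raised low values, other normalizations and moderations, a replicate block, subsets by animal number and leaving out each array. No cell intensity files were used here.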

Additional observations from a re-analysis of the deposited data

Results flagged for a closer look

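In 223 groups of values, 14 held a tumor far from the rest of its group by Dixon's criterion at the 95% level, where chance alone flags about 1 in 20 groups. Groups lying wholly below 3 were not examined. Anti-CD40 tumor 1 was the distant one for Cd8b1 (6.44), Bcl11b (4.49), Nkg7 (7.91), Cxcl10 (13.39), Cfb, the complement factor B gene (10.46), Mki67 (10.93) and the general macrophage mean (11.56), lowest among the treated tumors in each. Anti-CD40 tumor 4 was distant for Il12b (4.53), and anti-CD40 tumor 3 for Adipoq (8.39) and the M1-like mean (6.89). Among the controls, tumor 2 was distant for Irgm1 (12.06), tumor 5 for B2m (15.03) and tumor 1 for Saa3 (7.28) and Adipoq (3.91).

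The antibody difference with the MEK inhibitor differed from that without it, by the interaction test in limma, in 9 of 93 genes examined, against 440 of 18193 over all named genes. Many of the 93 were named for their antibody difference without the inhibitor, which is part of the interaction, so the share among them is no result about them. The interactions were -2.70 for Gzmk, -1.89 for Il12b, -1.63 for Spn, -1.29 for Slamf6, 0.29 for Rela, 3.67 for Mrc1, 3.03 for Ccl9, 2.50 for Abca9 and 2.14 for Stab1. The interaction of Rela was called in 7 of 18 fits that left out a tumor.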

How the results depend on the processing

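Of 1640 pairs of a named gene and an alternative, 1636 kept the sign of the difference and 6 passed the adjusted threshold. Over tumors left out in turn, Arg1 ran from -0.40 to 0.11, Adgre1 from -0.19 to 0.035 and Adipoq from -0.22 to 1.83. The anti-CD40 count of 0 became 2 without dim probe sets, 1 with cyclic loess, 6 with the filter plus trend and robust moderation (Tgfbi in 2 probe sets, Slamf6, Gbp2, Gzmk and 1 unnamed), 3 with all 18 arrays fitted together, 28 with controls 1 and 2 alone, and 0 to 6 with 1 tumor left out. The 28 included differences as small as 0.01 in dim probe sets, and none was a gene named in the report for its difference. With MEKi, the count became 2914 without dim probe sets, 10 among animal numbers under 7800 (chosen after seeing the data), and 29 to 850 with 1 tumor left out. The interaction count became 56 among animal numbers under 7800 and 618 to 1431 with 1 tumor left out, both chosen after seeing the data. With the replicate block it was 707, and the 9 named interactions kept their values at adjusted p = 0.0502 to 0.0869, while the anti-CD40 count stayed at 0. Same-numbered tumors correlated at -0.14 to 0.11 in their deviations and not every one was closest to its own number. No pairing by number was seen, but with so few tumors these correlations cannot exclude one.

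T cell genes at the unadjusted threshold numbered 5 with controls 1 and 2 alone and 7 to 17 with 1 tumor left out. Checkpoint genes numbered 2 and 2 to 7. The complement median was 0.30 without dim probe sets, with either moderation, and the mitosis median -0.27 with controls 1 and 2 alone. Cd8a minus Foxp3 was 1.11 over all probe sets of each gene and 1.54 after quantile normalization (exact permutation test, adjusted p = 0.0476 each), and 1.26 to 1.97 with 1 tumor left out. Nos2 minus Mrc1 was 1.86 with controls 1 and 2 alone (exact permutation test, adjusted p = 0.267) and 1.45 to 1.95 with 1 tumor left out, where the adjusted p was 0.0571 or 0.0714 in 8 of 9 cases. Signal near background limits Il12b, Chil3, Cxcl13, S100a9, Zap70, Tox, Sh2d1a and Fasl, and hides Cd4, Nos2, Foxp3 and most B cell genes.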
